A study of Drosophila melanogaster with 4 samples.

Results

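The 7 sugar transporter genes Tret1-1, Tret1-2, sut1, sut2, sut3, sut4 and Glut1 were taken by symbol from a table of 17510 Drosophila melanogaster genes counted in adult intestine RNA, and all 7 had a row. The intestines were dissected without Malpighian tubules and crop. The table held 2 libraries from wild-type flies and 2 from flies with a National Institute of Genetics transgenic RNAi line against CG5789, a gene now named Cftr that serves here as the fly equivalent of human CFTR, which encodes a chloride channel. Fly age and sex, the driver of the RNAi and a control for the transgene or line background are not stated in the sources used here, and their effects and that of the knockdown cannot be told apart.

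Sugars cross animal cell membranes mainly through facilitative carriers of the Slc2 (GLUT) family, which have a bundle of membrane-spanning helices and move glucose, fructose or disaccharides down their gradient. In the fly gut, dietary polysaccharides and sucrose are cut to single sugars by amylases and maltases, absorbed by enterocytes and largely passed to the haemolymph, where trehalose, a disaccharide of glucose made in the fat body, is the main circulating sugar. Tret1-1 is a facilitative trehalose transporter, Tret1-2 is its tandem paralogue, and Glut1 is the fly member closest to the mammalian basal glucose carrier. The 4 sut genes were named as sugar transporters from sequence likeness. In adult gut enteroendocrine cells, sut1 is known for a part in the sugar response of cells that make the hormone NPF, and Glut1 for a part in nutrient sensing by such cells.

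Of the 7 genes, 6 lie on chromosome arm 2R and Glut1 on 3L, all annotated as protein-coding in the BDGP6 assembly. sut1 (FBgn0028563, 8082976 to 8087151), sut2 (FBgn0028562, 8087396 to 8089297) and sut3 (FBgn0028561, 8089482 to 8091297) stand in a row on the plus strand, with 244 bases between sut1 and sut2 and 184 between sut2 and sut3. Tret1-1 (FBgn0050035, 11665768 to 11674782) and Tret1-2 (FBgn0033644, 11675935 to 11678014) also share the plus strand, 1152 bases apart. sut4 (FBgn0028560, 10085442 to 10087127) lies alone on the minus strand and has no intron in the annotation, since its 1686 exonic bases equal its span. Glut1 (FBgn0264574, 914074 to 993788 on the plus strand) spans 79715 bases with 10933 exonic bases and 20 annotated transcripts, which the counts per gene do not separate.

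Some of these loci overlap others. sut1 and slv, the fly Slc50 (SWEET) sugar transporter gene on the opposite strand, share 183 exonic bases, so without a stated strand setting reads there cannot be assigned to either gene. Roc2 contains both Tret1 genes and CG2269 contains sut4, each on the opposite strand and with no shared exonic base. Tret1-1 and Tret1-2 are paralogues, and how the counting split any shared reads is not given in the sources used here.

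Total counts were 30537063 and 11294882 in wild type 1 and 2 and 30252763 and 23674485 in RNAi 1 and 2. Libraries are numbered in the order of deposit, and the labels do not say whether they stem from separate flies, so the p-values measure a spread among libraries that can be technical. The targeted gene went against its label in part: Cftr had 13.8 and 17.5 CPM (read counts relative to the library total with TMM scaling) in RNAi 1 and 2 against 13.8 and 43.4 CPM in wild type 1 and 2, so RNAi 1 stood at 1.01 times wild type 1. Every direction below is for libraries as labelled. Of the 17510 genes, 9637 passed a filter on low counts and were tested. In earlier results of these counts wild type 1 and RNAi 1 (set 1) separated from wild type 2 and RNAi 2 (set 2). The labels name no batch of this kind, and both genotypes have 1 library per set.

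The 7 genes covered a wide range of levels, here in CPM per kb of exon, the scale on which genes of different length can be compared. sut2 was the most abundant, with 63.3 in wild type 1, 40.7 in wild type 2, 46.1 in RNAi 1 and 38.7 in RNAi 2. Its mean of 47.2 lay at percentile 84.6 of the tested genes. The lowest sut2 library stood above the highest of any other member. sut1 followed with 14.0 and 12.0 CPM per kb in wild type and 10.8 and 11.4 in RNAi, and Tret1-1 with 10.0 and 14.5 in wild type and 7.25 and 10.4 in RNAi. The ranges of sut1 and Tret1-1 overlapped, so their order is not set by these libraries.

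Glut1 was about an order of magnitude lower. It had 1.32 and 1.08 CPM per kb in wild type and 0.648 and 0.962 in RNAi, and its mean lay at percentile 20.1 of the tested genes. This level is per kb over the exons of all 20 transcripts together, and a shorter transcript would have a higher level for the same counts. Tret1-2 had 0.327 and 0.582 CPM per kb in wild type and 0.624 and 0.361 in RNAi, so that the highest Tret1-2 library lay just under the lowest Glut1 library. Tret1-1 exceeded its tandem neighbour Tret1-2 in every library, by 30.7, 24.8, 11.6 and 28.9 times in wild type 1, wild type 2, RNAi 1 and RNAi 2. Within the sut cluster sut2 exceeded sut1 by 4.52 and 3.40 times in wild type and 4.29 and 3.38 times in RNAi.

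**Figure D1:**
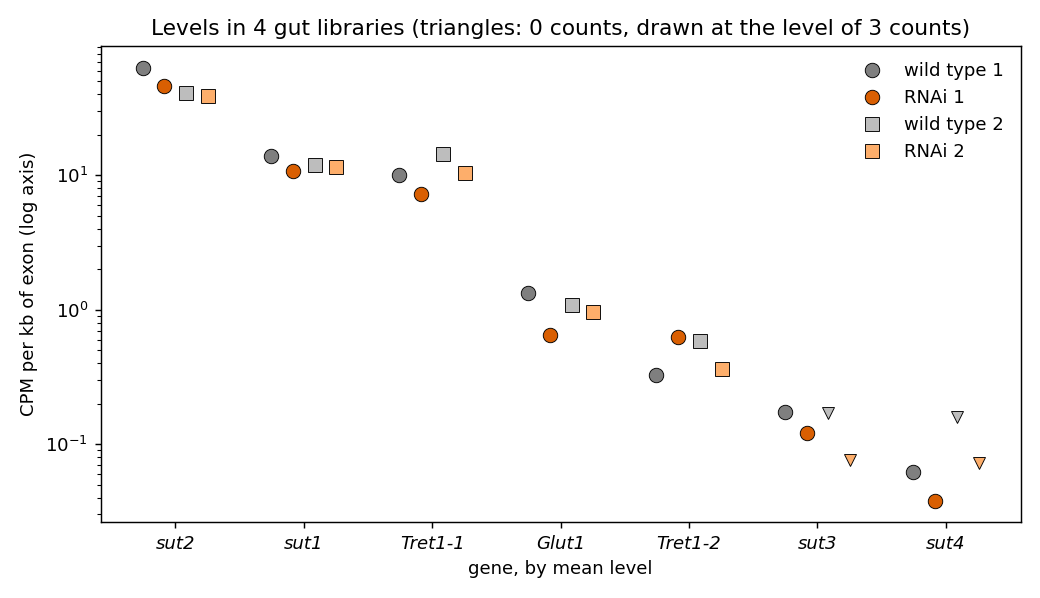
Level of the 7 sugar transporter genes in CPM per kb of exon on a log axis, 1 point per library, ordered by mean. sut2 lies highest in each library, sut1 and Tret1-1 overlap, and sut3 and sut4 have 0 counts in wild type 2 and RNAi 2 (triangles, drawn at the level of 3 counts).

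sut3 and sut4 were at the edge of detection. sut3 had 8 counts in wild type 1, 6 in RNAi 1 and 0 in wild type 2 and RNAi 2. sut4 had 3, 2, 0 and 0 counts in the same order. The counts of both genes fell in the libraries of set 1, in both genotypes. A count of 0 allows up to 3 counts, which is 0.269 CPM in wild type 2 and 0.122 CPM in RNAi 2, so expression below that is not detectable at this depth. These floors and the count intervals below cover counting error only. Both genes stayed under the filter on low counts, so 5 of the 7 were tested, and no fold change is given for sut3 and sut4.

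Tret1-1, which carries trehalose across the membrane, was lower by the same ratio in each pair of libraries. It had 33.8 and 48.8 CPM in wild type 1 and 2 and 24.5 and 35.2 CPM in RNAi 1 and 2. RNAi 2 lay slightly above wild type 1, so the genotypes overlapped, with group means of 41.3 ± 10.6 CPM in wild type and 29.8 ± 7.62 CPM in RNAi (SD, n = 2 each). RNAi 1 was at 0.723 times wild type 1 (95% exact binomial interval 0.657 to 0.795) and RNAi 2 at 0.722 times wild type 2 (0.647 to 0.805). The libraries of set 2 were in turn 1.44 times those of set 1 in both genotypes. The log2 fold change of RNAi over wild type fitted by edgeR was -0.47 (SE 0.42, 95% interval -1.45 to 0.52), and the quasi-likelihood test gave an adjusted p of 1.0.

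Glut1, the basal glucose carrier, had 14.5 and 11.8 CPM in wild type 1 and 2 and 7.08 and 10.5 CPM in RNAi 1 and 2. Both RNAi libraries lay below both wild-type libraries, but the size of the gap differed between the pairs. RNAi 1 was at 0.490 times wild type 1 (exact interval 0.414 to 0.578), while RNAi 2 was at 0.895 times wild type 2, with an interval of 0.722 to 1.11 that includes no difference. The fitted log2 fold change was -0.58 (SE 0.39, 95% interval -1.5 to 0.34; edgeR adjusted p = 1.0).

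sut1 and sut2, neighbours on 2R, had similar ratios. sut2 had 101.9 and 65.4 CPM in wild type 1 and 2 and 74.2 and 62.2 CPM in RNAi 1 and 2, so that wild type 1 stood above the others. sut1 had 33.8 and 28.9 CPM in wild type and 26.0 and 27.6 CPM in RNAi, with no overlap between the genotypes but a narrow gap. In set 1 the RNAi library was at 0.728 times wild type for sut2 (exact interval 0.689 to 0.769) and 0.767 for sut1 (0.698 to 0.843). In set 2 the ratios were 0.95 (0.869 to 1.04) and 0.955 (0.835 to 1.09), both within counting error of no difference. The fitted log2 fold changes were -0.30 (SE 0.40, 95% interval -1.24 to 0.65) for sut2 and -0.23 (SE 0.37, -1.11 to 0.65) for sut1, both at an edgeR adjusted p of 1.0. When wild type 1 was left out, the value of sut2 was 0.038.

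Tret1-2, the weakly expressed paralogue, went in opposite directions in the pairs. Its counts were 16 and 11 in wild type 1 and 2 and 33 and 15 in RNAi 1 and 2, or 0.554, 0.987, 1.06 and 0.612 CPM. RNAi 1 was at 1.91 times wild type 1 (exact interval 1.02 to 3.72) and RNAi 2 at 0.619 times wild type 2 (0.266 to 1.49). The fitted log2 fold change of 0.18 had an SE of 0.67 and a 95% interval from -1.40 to 1.75 (edgeR adjusted p = 1.0), and without wild type 1 or without RNAi 1 it was -0.26.

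**Figure D2:**
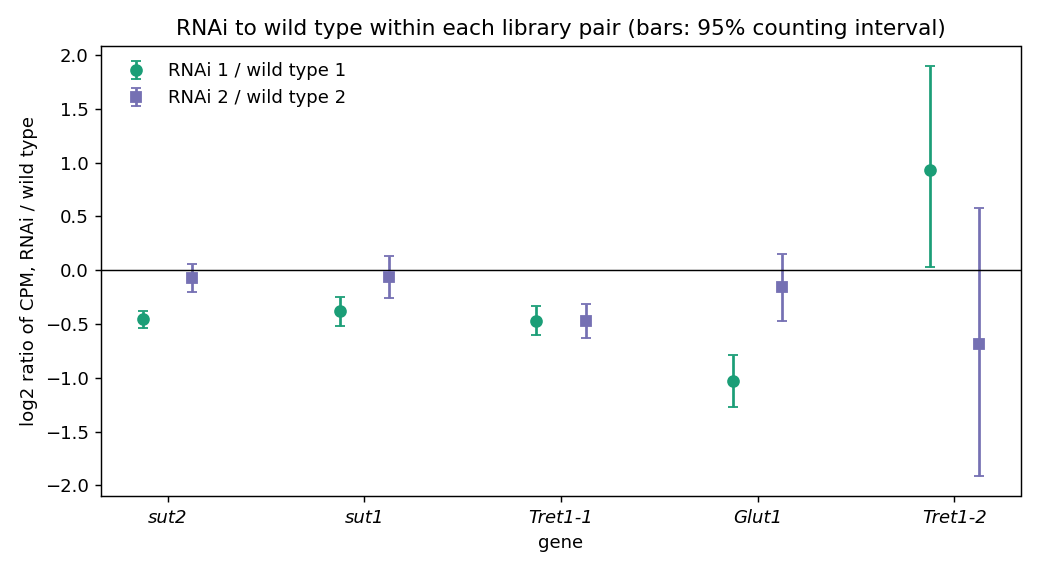
Log2 ratio of CPM between RNAi and wild type within each library set, with 95% exact binomial intervals that cover counting error only. Tret1-1 lies at the same ratio in both sets, sut1, sut2 and Glut1 are near 0 in set 2 and lower in set 1, and Tret1-2 changes sign.

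In the model with genotype alone none of the 5 tested members passed an adjusted p of 0.05, and none had an unadjusted p under 0.05 in edgeR, DESeq2 or limma-voom. In that model 0.125% of all 9637 tested genes were called (12 genes). With the library set as a further term, an alternative known from earlier results of these counts, edgeR again called none of the 5, where 7.1% of tested genes were called and 3.65% of tested genes were called lower. Tret1-1 and Glut1 came closest. Their log2 fold changes in that model were -0.47 (SE 0.16, 95% interval -0.80 to -0.14, edgeR adjusted p = 0.0821) and -0.61 (SE 0.21, -1.05 to -0.18, edgeR adjusted p = 0.0866). They were the 2 members at an unadjusted p under 0.05, a level that 9.32% of tested genes reached in the lower direction. limma-voom with the set term called Glut1 lower (log2 fold change -0.66, SE 0.21, adjusted p = 0.0412), as it did 4.33% of tested genes, while the adjusted p of Glut1 in DESeq2 with the set term was 0.540. The p-values with the set term can be too small, because the counts tested also gave the sets, and the model keeps 1 residual degree of freedom.

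The biological coefficient of variation over all genes was 36.1% without the set term and 14.8% with it. The SEs of Tret1-1, Glut1, sut1 and sut2 were smaller with the set term. That of Tret1-2 was 0.67 without it and 0.71 with it. For sut1 and sut2 the interval with the set term ran from -0.57 to 0.11 and from -0.61 to 0.08 on the log2 scale. Of the 5 tested members 4 were lower in RNAi in both sets, against 30.9% of tested genes. Of these, sut1 and Glut1 showed no overlap between genotypes in the lower direction, against 12.2% of tested genes. The median log2 fold change of the 5 was -0.30 without and -0.27 with the set term, beside 0.0065 and 0.0040 over all tested genes.

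**Figure D3:**
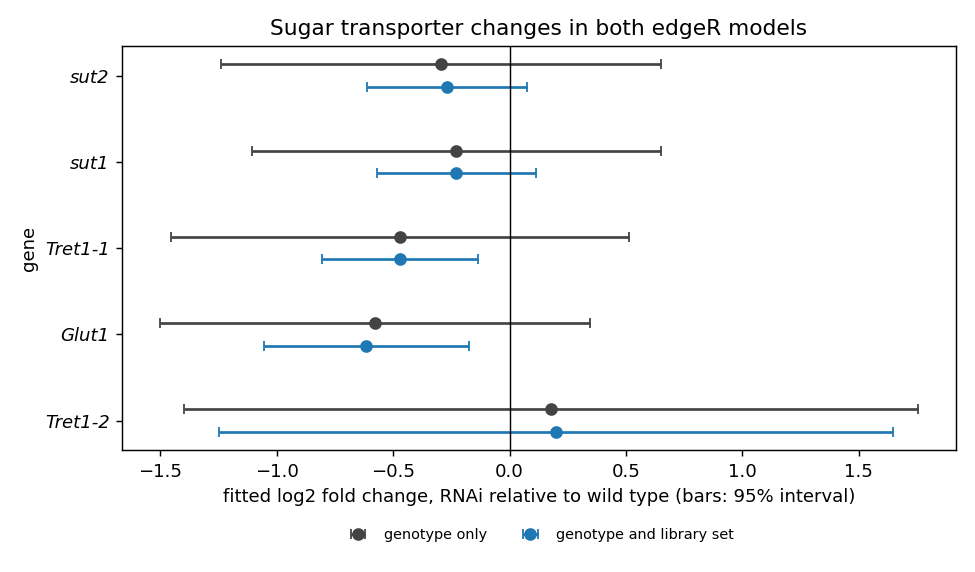
Fitted log2 fold change of the 5 tested members, RNAi relative to wild type, with 95% intervals, in edgeR models with genotype alone and with the library set as a further term. The intervals of all 5 include 0 with genotype alone, and those of Tret1-1 and Glut1 lie below 0 with the set term, where neither passes the adjusted threshold.

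The named transporters were a small part of the Slc2-like transcript pool of these guts. A list of 17 other Slc2-like genes, most known by annotation symbols and without a stated substrate, was set beside the 7. Of the summed CPM per kb over these 24 genes, the 7 members held 5.59% and 7.11% in wild type 1 and 2 and 3.41% and 3.35% in RNAi 1 and 2. CG6484 alone held 44.8% and 59.6% in wild type and 56.1% and 65.8% in RNAi. CG6484, CG1213, CG1208 and CG4607 together held between 86.5% and 92.9%. sut2 ranked 6th, sut1 8th, Tret1-1 9th, Glut1 12th and Tret1-2 15th of the 24 by mean level.

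The share of the members was lower in RNAi in both sets, and this share moved with the abundant genes as well as with the members. The 7 summed to 89.3 and 68.8 CPM per kb in wild type 1 and 2 and to 65.6 and 61.9 in RNAi 1 and 2. The 17 other genes summed to 1509 and 898.2 CPM per kb in wild type 1 and 2 and to 1858 and 1786 in RNAi 1 and 2. The ranges of the members' sum did not overlap between the genotypes by a small margin, and wild type 2 had the lowest sum of the other genes. Most of the members' sum was sut2, with 63.3 and 40.7 CPM per kb in wild type and 46.1 and 38.7 in RNAi, where the genotypes overlapped.

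**Figure D4:**
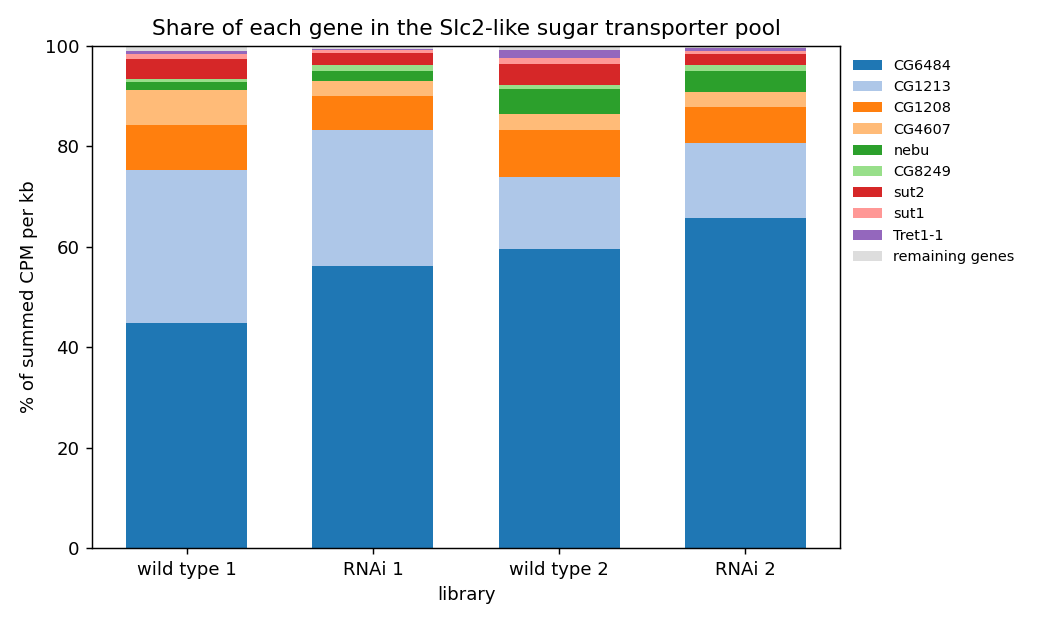
Share of each gene in the summed CPM per kb over 24 Slc2-like genes, 1 stacked bar per library. CG6484 takes 44.8% to 65.8%, while the 7 named transporters together take 3.35% to 7.11%.

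Of the 10 other Slc2-like genes that were tested, 3 were called higher with the set term and none lower, where 3.45% of all tested genes were called higher. In both sets 4 of the 10 were higher in RNAi and 3 were lower, where 30.9% of tested genes were lower in both. CG8249 had 33.4 and 24.2 CPM in wild type and 68.7 and 75.8 CPM in RNAi, a log2 fold change of 1.33 (SE 0.18, edgeR adjusted p = 1.26e-06). CG6484 had 1138 and 917.1 CPM in wild type and 1717 and 1933 CPM in RNAi, a log2 fold change of 0.83 (SE 0.21, edgeR adjusted p = 0.00816). nebu, a predicted sugar transporter gene, had 93.7 and 163.5 CPM in wild type and 140.9 and 264.0 CPM in RNAi, a log2 fold change of 0.64 (SE 0.18, edgeR adjusted p = 0.0185). The genotypes did not overlap for CG8249 and CG6484 but did for nebu. With genotype alone the log2 value of nebu, 0.66, was 0.087 without RNAi 2 and 0.30 without wild type 1. It reached 1.04 when RNAi 1 was left out and 1.14 when wild type 2 was. With genotype alone none of the 10 passed, and 1 had an unadjusted p under 0.05, with 0 called by DESeq2 and 0 by limma-voom. The difference between these genes and the members was not tested.

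Among 7 tested genes of the sodium-coupled Slc5, the Slc45 sucrose and the Slc50 families, 1 was called, in the lower direction. SLC5A11, which in fly brain neurons takes part in choosing nutritive sugar, had 25.5 and 72.3 CPM in wild type and 10.8 and 55.7 CPM in RNAi, a log2 fold change of -0.79 (SE 0.19, edgeR adjusted p = 0.0112) with the set term. Its genotypes overlapped, and with genotype alone the value was -0.55, or 0.42 without wild type 2 and 0.19 without RNAi 1. It became -1.12 when wild type 1 was left out and -2.22 when RNAi 2 was. DESeq2 with the set term did not call it (adjusted p = 0.0589). slv, whose exons meet those of sut1, had 43.4 and 30.1 CPM in wild type and 35.2 and 27.1 CPM in RNAi. Its log2 fold change with the set term was -0.23 (SE 0.17), equal to that of sut1 to 2 decimals, and how much the shared 183 bases add to this was not tested.

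Genes that act before and after transport were read from 3 further lists. Of 14 tested trehalose and sugar handling genes, Tps1, the trehalose synthesis enzyme, was the 1 called with the set term. It rose 2.25-fold, with 17.1 and 21.2 CPM in RNAi against 8.96 and 7.72 CPM in wild type (log2 fold change 1.17, SE 0.19, edgeR adjusted p = 4.49e-05). Treh, which cleaves the trehalose that Tret1-1 moves, had 429.2 and 831.7 CPM in wild type and 476.5 and 977.8 CPM in RNAi, with a log2 fold change of 0.19 (SE 0.20, edgeR adjusted p = 0.694), and was chosen once its values were known. Of 14 tested amylase, maltase and related genes none was called lower with the set term and 8 were called higher. These were Mal-B1, Amyrel, Mal-A4, Amy-d, Mal-A1, Mal-A3, Mal-A6 and Mal-A2, with log2 fold changes from 0.64 to 4.61. The highest value, that of Mal-B1, rests on 16 and 4 counts in wild type against 476 and 157 in RNAi. With genotype alone the log2 fold change of Amyrel was 1.54, or -0.16 without RNAi 1, 0.68 without wild type 2 and 3.86 without wild type 1. The other 7 stayed above 0 with each library left out, the lowest value being 0.23 for Mal-A3 without wild type 2. The median log2 fold change of that list was 0.81 with the set term, against 0.14 for the other Slc2-like genes and -0.27 for the members.

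In the sugar sensing list 3 of 12 tested genes were called with the set term. bigmax, the fly Mlx partner of the sugar-responsive factor Mondo, fell by 0.86 on the log2 scale (SE 0.17, edgeR adjusted p = 4.33e-04), with 83.5 and 83.6 CPM in wild type and 45.4 and 47.0 CPM in RNAi. daw, an activin-type ligand, fell by 1.01 (SE 0.24, edgeR adjusted p = 0.0140), with 10.0 and 19.7 CPM in wild type and 3.30 and 14.1 CPM in RNAi, where the genotypes overlapped. DESeq2 with the set term did not call daw (adjusted p = 0.0640), and its value with genotype alone, -0.77, was -0.070 without RNAi 1 and -0.17 without wild type 2. It was -1.19 when wild type 1 was left out and -2.21 when RNAi 2 was. Akh, the adipokinetic hormone gene of the corpora cardiaca beside the foregut, had 36.4 and 18.0 CPM in wild type and 61.0 and 29.3 CPM in RNAi, where the genotypes also overlapped, and rose 1.65-fold (SE 0.17 on the log2 scale, edgeR adjusted p = 0.00336). With genotype alone its log2 value of 0.73 was 0.10 without RNAi 1 and 0.31 without wild type 2. It reached 1.12 when RNAi 2 was left out and 1.30 when wild type 1 was. With genotype alone edgeR called none of the genes in these 5 lists. An unadjusted p under 0.05 was reached by 4 of the 57 tested, DESeq2 called 1 (Mal-B1) and limma-voom 0. The called shares can be read beside the 7.1% of all tested genes.

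**Figure D5:**
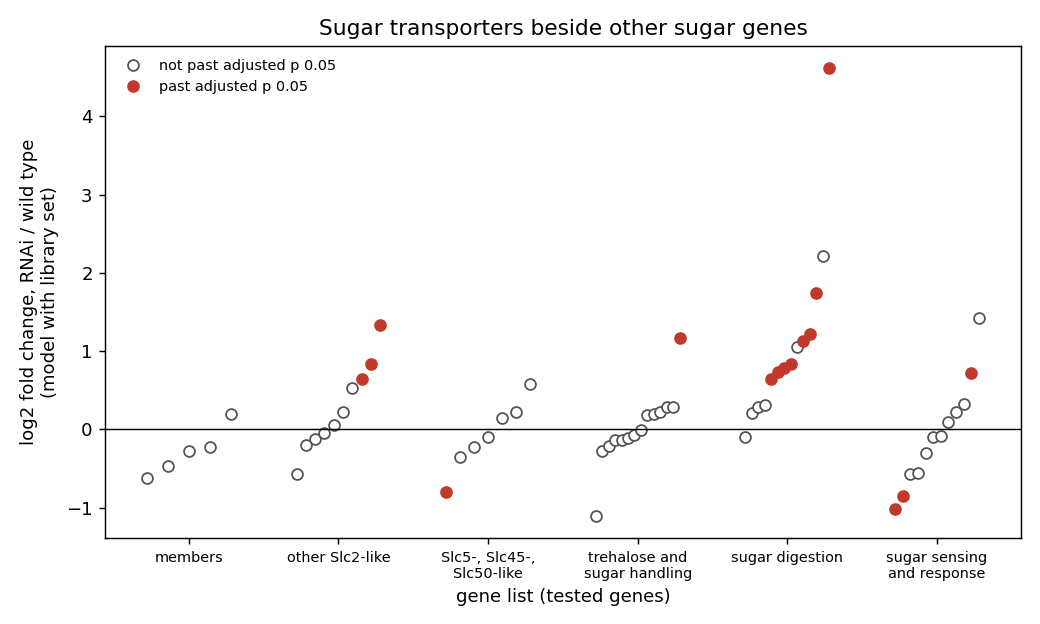
Log2 fold change of each tested gene in the edgeR model with the library set, RNAi relative to wild type, for the 5 tested members and 5 lists of other sugar genes. Filled points passed an adjusted p of 0.05: none of the members, 3 of 10 other Slc2-like genes and 8 of 14 sugar digestion genes.

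In bulk RNA fewer cells of a type and less RNA per cell cannot be told apart, so markers of the cell types that could carry these transporters are given here. The marker calls can be read beside all tested genes, of which 3.45% were called higher and 3.65% lower with the set term. All 7 visceral muscle markers were lower in each set's RNAi library, against 30.9% of tested genes. With the set term 3 were called lower (sls, up and TpnC47D). The sum of the 7 was 790.8 and 1650 CPM in wild type 1 and 2 and 586.4 and 1106 CPM in RNAi 1 and 2. This sum shares with Tret1-1 the lower RNAi value in each set and the higher value in set 2, and its part in the Tret1-1 difference was not tested. Of 8 enteroendocrine markers, NPF fell (43.0 and 30.1 CPM in wild type, 22.4 and 15.7 CPM in RNAi; log2 fold change -0.94, SE 0.17, edgeR adjusted p = 1.41e-04 with the set term), while AstA and CCHa2 rose. The sum of the 8 was between 345.9 and 370.0 CPM in the 4 libraries. NPF was lower in RNAi in both sets, as were sut1 and Glut1, but the patterns differed. The log2 ratio of NPF was -0.94 in both sets, while in set 2 that of sut1 was -0.066 and that of Glut1 -0.16. The part of enteroendocrine cells in the sut1 and Glut1 values was not tested.

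Of 6 fat body markers, Yp1 was called, in the higher direction. Among the 4 tested, Yp1 and apolpp were higher in RNAi in both sets, and Lsp1beta and Fbp2 were lower. Lsp1beta had 12.6 and 10.4 CPM in wild type and 1.47 and 9.95 CPM in RNAi. Fbp2 had 1.07 and 0.987 CPM in wild type and 0.160 and 0.204 CPM in RNAi. The sum of the 6 was 99.1 and 117.3 CPM in wild type and 99.1 and 217.9 CPM in RNAi. Yp1 alone gave 69.3 and 73.4 CPM of this in wild type and 81.2 and 159.7 CPM in RNAi. Lsp2 and Fbp1 were at 0 in wild type 2. The 5 glial and neuronal markers summed to between 20.2 and 25.3 CPM in the 4 libraries, with none called and repo, the defining glial gene, at 0 in wild type 2 and at most 0.321 CPM elsewhere. Of 6 haemocyte markers NimC1 was called higher, and He was at 0 in every library. Among the 4 tested, NimC1 and Pxn were higher in RNAi in both sets, and srp and Ppn were lower. Ppn had 12.1 and 28.3 CPM in wild type and 10.2 and 19.3 CPM in RNAi. The sum of the 6 was 16.7 and 36.4 CPM in wild type and 19.6 and 28.5 CPM in RNAi. The 5 Malpighian tubule markers summed to between 51.4 and 63.3 CPM, and none was called. Irk2 alone gave 55.4 and 44.5 CPM of this in wild type and 54.3 and 49.0 CPM in RNAi. Uro, the tubule urate oxidase gene, had 26 and 1 counts in wild type and 10 and 0 in RNAi. All 7 markers of enterocytes, the absorptive cells of the labelled tissue, were tested and present in every library. Their sum was 43001 and 37431 CPM in wild type 1 and 2 and 34456 and 28224 CPM in RNAi 1 and 2, lower in RNAi in each set. It was mostly that of the trypsin genes alphaTry and betaTry. alphaTry alone gave 32980 and 27424 CPM in wild type and 24217 and 18990 CPM in RNAi. betaTry had 8323.6 and 8040.5 CPM in wild type and 8332.7 and 6938.5 CPM in RNAi. In both sets nub and Npc1b were higher in RNAi, and alphaTry, iotaTry and pdm2 were lower. Single markers differed in direction: with the set term the sterol uptake gene Npc1b rose 3.32-fold and the transcription factor gene pdm2 fell by 0.69 on the log2 scale (edgeR adjusted p = 8.74e-09 and 0.0123), while the other 5 were not called. Copper cell markers summed to 229 and 256 CPM in wild type 1 and 2 and to 150 and 268 CPM in RNAi 1 and 2. In the same order, tracheal markers summed to 37.5, 29.3, 21.9 and 30.8 CPM and hindgut markers to 102, 143, 69.8 and 121 CPM. The 3 matched markers of the stem cell and enteroblast list, Su(H), klu and E(spl)mbeta-HLH, summed to 17.4, 12.8, 22.5 and 18.3 CPM. esg and Dl of that list were not matched to a row, so this sum leaves them out. Of these lists only the hindgut marker bowl was called with the set term, in the lower direction. The hindgut sum was mostly drm, with 82.0 and 105.6 CPM in wild type and 57.9 and 96.6 CPM in RNAi. In both sets drm and bowl were lower in RNAi and byn was higher, while otp was higher in set 1 and lower in set 2. The part of enterocytes and of these other cells in the members' values was not tested.

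Around the members, neighbouring genes did not share one direction. Roc2, which contains both Tret1 genes, had a log2 fold change of 0.42 with the set term (SE 0.19, edgeR adjusted p = 0.228), opposite in sign to Tret1-1. Vps28, beside sut1, was at 0.069 (SE 0.17). sand, beside sut3, had 0.450 and 1.62 CPM in wild type 1 and 2 and 1.12 and 1.30 CPM in RNAi 1 and 2, higher in RNAi in set 1 and lower in set 2. egr, the tumour necrosis factor ligand gene beside sut4, was at -0.51 (SE 0.18, edgeR adjusted p = 0.0775), and Jra, the fly Jun gene on the other side, at 0.51 (SE 0.17, edgeR adjusted p = 0.0633). CG2269, which contains sut4, had 0.277 and 0.180 CPM in wild type and 1.51 and 0.612 CPM in RNAi (edgeR adjusted p = 0.115). nerfin-1 and aln, next to Glut1, had at most 8 counts in a library, as did the 2 long non-coding RNA genes inside it.

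The genes most like each member over the 4 libraries were found by the Euclidean distance of log2 CPM centred on each gene's mean, among the 6760 genes at or above a mean of 5 CPM. With 4 libraries many genes lie close, and the distance is a description. Nearest to Tret1-1 were Cyp6a20 (distance 0.056), a cytochrome P450 gene, and Mlc2 (0.068), the muscle myosin regulatory light chain gene and 1 of the muscle markers above. Nearest to sut1 were Ugt302C1 (0.033) and CG8314 (0.036), and nearest to sut2 were mRpL1 (0.032), a mitochondrial ribosomal protein gene, and Cyt-c1 (0.044), a subunit of respiratory complex III. Nearest to Glut1 were Jhbp6 (0.053) and CG30427 (0.067).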

How the data were processed

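Per the labels' protocols, RNA from adult intestines went into standard Illumina libraries. The deposited values are raw read counts per gene, 1 column per library, without normalization. FastQC, STAR and BDGP6 appear in the submitters' processing notes. Their versions, the counter and whether it used strand are not given in the sources used here. Symbols and positions came from an Ensembl BDGP6 annotation, which matched 17405 of 17510 identifiers. Levels per kb use the union of annotated exons.

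The analysis used edgeR 4.0.16 in R 4.3.3: filterByExpr left 9637 genes, TMM scaling, and the quasi-likelihood test (robust estimation) of genotype over all 4 libraries, with Benjamini-Hochberg adjustment over all tested genes and a threshold of 0.05. Alternatives were DESeq2 1.42.0, limma-voom (limma 3.58.1), other scalings and filters, thinned counts, each library left out, and a library set term. The edgeR fit with genotype alone was also run on simulated counts. These had 1 dispersion for all genes and no library set effect, so they do not bear on the fits with the set term. log2 CPM used a prior count of 2. Intervals are 95%.

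The members, lists and alternatives were chosen with earlier results of these data known. Named genes were all members, their nearest and overlapping neighbours, the 2 nearest genes in pattern, and in each list the called genes, at most 8. Neighbours that are transposable elements or tRNA genes are not described. Of the listed names, 2 (esg and Dl, of the stem cell and enteroblast list) were matched to no row by symbol or synonym and are not analysed here. Rows for them under identifiers without a symbol were not looked for.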

Additional observations from a re-analysis of the deposited data

How the results depend on the processing

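The number of called genes was 12, and it was 14 with RLE factors, library size alone or the 20 most abundant genes left out, 12 with non-robust estimation or limma-voom, 1 with a 5 CPM minimum mean or upper-quartile factors, 7 after thinning, 120 without a count filter, 92 with DESeq2, and between 58 and 120 without 1 library. With the library set term it was 684 in edgeR, 413 in DESeq2, 799 in limma-voom and 968 with library size alone. Of 89 values of the 5 tested members under 18 other settings, 85 kept their direction and side of the threshold. Glut1 passed in limma-voom with the set term (log2 fold change -0.66). Without 1 library Tret1-2 ranged from -0.26 to 0.60 and sut2 from -0.57 to 0.038, changing sign, while Tret1-1 ranged from -0.80 to -0.16, sut1 from -0.32 to -0.13 and Glut1 from -0.93 to -0.32. Under the other settings the members kept their sign. Of 288 values of the 16 other named genes, 215 kept their direction and side of the threshold, 70 kept their direction and passed a threshold that the genotype-only edgeR fit had not passed, and 3 reversed: SLC5A11 ranged from -2.22 to 0.42 and Amyrel from -0.16 to 3.86 without 1 library. Library size alone moved the median of all genes to 0.11, or 0.10 with the set term. The causes were not tested. Where a library was left out, the remaining one of its genotype was assumed to vary like the others. Leaving out a library from the model with the set term leaves no residual degrees of freedom, so this was not run. The labels give no replicate numbers, so no pairing comes from them. The fits with the set term pair each wild-type library with the RNAi library of its set, and the sets were read from the counts. Depth limits sut3, sut4 and Tret1-2.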
